A study of Homo sapiens with 6 samples.

Results

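The gene-dense band 19p12 of human chromosome 19 carries a run of ZNF genes, which encode zinc finger proteins of the C2H2 type. Its members were chosen by symbol, position and level: protein-coding genes of GENCODE release 44 with a symbol that begins with ZNF, a start between bases 19500000 and 24500000 of chromosome 19 on GRCh38, and a mean of at least 10 normalised counts over the 6 libraries. The rule found 29 members, of 37 coding ZNF genes in that window and of 14684 genes of the series that reached the same mean, among 37902 genes in the table. Below, 19p12 is a name for this window, which was set by bases and not by the limits of the band. The cluster was picked for study with earlier results of these same libraries known, so that its lower level in the knockout line is given as a description and supports nothing on its own.

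ARPE-19, a human retinal pigment epithelium (RPE) cell line, was compared with a POLDIP2 KO line made from it. POLDIP2 encodes a protein first found as a partner of DNA polymerase delta. The knockout line was made by transduction of ARPE-19 with a lentivirus that carried SpCas9 and an sgRNA against the POLDIP2 coding sequence, followed by puromycin selection and expansion; a single clone is not stated, and the wild type (WT) is not said to have received a vector. Each line gave 3 biological replicates of poly(A) RNA under regular maintenance at day 3.

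Most proteins of this cluster join an N-terminal KRAB domain to a row of C2H2 fingers. The fingers bind DNA, often within transposable elements, and the KRAB domain recruits the co-repressor TRIM28 (KAP1), with which the H3K9 methyltransferase SETDB1 and the HP1 proteins act to silence the bound locus. The 19p12 genes arose by repeated tandem duplication in primates, and among them ZNF91 is known to repress SVA elements and ZNF93 to repress L1 elements.

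The libraries held 31532797 to 45795509 recovered reads, and a level of 3 reads, taken as the floor of detection, was 2.44 to 3.69 normalised counts. POLDIP2 itself had 3919, 4827 and 4798 normalised counts in WT and 1063, 1248 and 1143 in POLDIP2 KO, a log2 fold change of -1.97 ± 0.13 (SE, n = 3 per line), with an adjusted p value of 0.00961 by limma with Benjamini-Hochberg adjustment. Of 16 RPE markers, 12 reached the mean of 10, among them MITF, OTX2, KRT8 and KRT18. In 2 of the 12 every POLDIP2 KO library lay below every WT library, as in part of the cluster and in 5.44% of all genes tested, and in 0 above. These were LRAT (WT 29.2 to 106 normalised counts, POLDIP2 KO 22.1 to 28.8) and SERPINF1 (WT 103 to 168, POLDIP2 KO 49.6 to 101). In both the highest knockout library and the lowest WT library nearly met. RPE65 and TTR were listed at 0 in every library, and TYR had at most 3 reads. Of 8 fibroblast or mesenchymal markers 6 reached it, and in all 6 the lines overlapped. The summed normalised count of the 8 was 138408 to 176526 in WT and 145882 to 199193 in POLDIP2 KO. Most of it was VIM, with 133876 to 166862 in WT and 141837 to 181847 in POLDIP2 KO. COL1A2 and COL3A1 reached 614 and 124 normalised counts in POLDIP2 KO replicate 1, against at most 9.45 and 7.31 in WT. COL1A1 (WT 320 to 2147, POLDIP2 KO 760 to 6956) and PDGFRB (WT 1778 to 4623, POLDIP2 KO 1293 to 6572) were also highest in that library. Any part of these markers in the ZNF values was not tested.

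The 19p12 ZNF genes were mostly lower in POLDIP2 KO than in WT. The mean log2 value was lower in 27 of the 29 members, against 50.1% of all genes tested, and higher in ZNF430 and ZNF492; ZNF14, at -0.02, turned to 0.01 under quantile normalisation. ZNF genes outside the cluster were also lower more often than not, with 56.5% before the window on chromosome 19, 68.4% after it and 65.8% on other chromosomes. The median log2 fold change of the members was -0.39, with quartiles of -0.70 and -0.30, while that of all 14684 genes was 0.00 to 2 decimals. Their summed normalised counts were 9690, 7856 and 9878 in the WT libraries and 6414, 6961 and 6768 in POLDIP2 KO. Every POLDIP2 KO sum lay below every WT sum, at 0.734 times the WT mean. In RNA of whole cultures, fewer cells that express a gene and less of its RNA per cell cannot be told apart.

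In 11 members all 3 POLDIP2 KO libraries lay below all 3 WT libraries, against 5.44% of all genes tested, and in none did all POLDIP2 KO libraries lie above. These 11 were ZNF93, ZNF486, ZNF626, ZNF708, ZNF100, ZNF43, ZNF730, ZNF724, ZNF91, ZNF675 and ZNF681, and the lines overlapped in the other 18. With 3 libraries a line, the smallest two-sided p value of an exact permutation is 0.1, so single members were read from the limma fit over all genes. There, 10 members were lower at an unadjusted p value under 0.05, against 3.47% of all genes tested, and none was higher. After Benjamini-Hochberg adjustment over all 14684 genes, limma called 0 members (adjusted p under 0.05, fold over 1.5), and the lowest adjusted p value was 0.0836, while 0.0885% of all genes were called lower. With the replicate number as a block, limma called 1 member lower (0.0885% of all genes), and on recovered reads edgeR called 0 (0.0545% of all genes) and DESeq2 called 3 (0.933% of all genes). The blocked call was ZNF43, and the DESeq2 calls were ZNF43, ZNF681 and ZNF486.

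ZNF43 encodes a KRAB protein with 19 C2H2 fingers and lies on the minus strand at chr19:21804946-21852125. It had 572, 359 and 533 normalised counts in WT and 182, 111 and 119 in POLDIP2 KO. The highest knockout library was therefore well under the lowest WT library. The log2 fold change was -1.83 ± 0.27 (SE, n = 3 per line), with a 95% interval of -2.47 to -1.18. Its adjusted p value (Benjamini-Hochberg) was 0.0836 by limma, 0.0477 with the replicate block, 0.111 by edgeR and 8.61e-07 by DESeq2, so the call depends on the model. By unadjusted p value it ranked 48 of 14684 genes, the first of the members.

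ZNF681, a gene for a protein with 11 fingers near the centromeric end of the cluster (chr19:23739195-23758891), had 345, 300 and 328 normalised counts in WT and 138, 155 and 165 in POLDIP2 KO. Its log2 fold change was -1.08 ± 0.17 (SE, n = 3 per line; 95% interval -1.48 to -0.68). The adjusted p value (Benjamini-Hochberg) was 0.0903 by limma, 0.0956 with the block, 0.124 by edgeR and 3.71e-05 by DESeq2. The spread within each line was small here, with an SD of 22.6 in WT and 13.7 in POLDIP2 KO. ZNF486 (chr19:20167214-20200488, 9 fingers) had 265, 232 and 303 normalised counts in WT and 128, 146 and 137 in POLDIP2 KO. The log2 fold change was -0.95 ± 0.19 (SE, n = 3 per line), and its adjusted p value (Benjamini-Hochberg) was 0.186 by limma and 0.00394 by DESeq2. In all 3 of these genes the difference had the same sign within each replicate number.

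ZNF626, ZNF93 and ZNF730 had larger fold changes at much lower levels, and their WT libraries spread widely. ZNF626 (10 fingers) had 61.4, 30.1 and 16.7 normalised counts in WT and 13.5, 3.26 and 0.993 in POLDIP2 KO; the last is 1 read and under the floor. ZNF93, the known L1 repressor, had 99.2, 35.1 and 47.0 in WT and 11.1, 31.7 and 6.95 in POLDIP2 KO. ZNF730 had 57.6, 20.1 and 50.1 in WT and 14.8, 11.4 and 4.96 in POLDIP2 KO. In each of the 3 the lines did not overlap, but for ZNF93 replicate 2 of the lines differed by only -0.14 on the log2 scale, against -3.05 and -2.59 for replicates 1 and 3. ZNF626 reached the mean of 10 only through WT, with a mean of 36.1 against 5.93 in POLDIP2 KO, so that the filter itself asked for a lower knockout level. Without it, 28 members remain, with a median log2 fold change of -0.38. Of these, 26 were lower on average and 10 had no overlap, against 50.1% and 5.44% of all genes tested. By limma, 9 were lower at an unadjusted p value under 0.05, against 3.47% of all genes tested. The log2 fold changes of ZNF626, ZNF93 and ZNF730 were -2.71 ± 0.87, -1.93 ± 0.65 and -1.92 ± 0.60 (SE, n = 3 per line), with adjusted p values of 0.531, 0.577 and 0.510 by limma with Benjamini-Hochberg adjustment.

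ZNF91, the SVA repressor, was among the most abundant members. With 32 fingers it had the longest array of the 29 members, the only genes of the cluster in which fingers were counted. It had 1028, 822 and 1004 normalised counts in WT and 624, 667 and 799 in POLDIP2 KO, so that the highest knockout library came close to the lowest WT library. Its log2 fold change was -0.45 ± 0.15 (SE, n = 3 per line; 95% interval -0.81 to -0.09), with an adjusted p value of 0.585 by limma with Benjamini-Hochberg adjustment. ZNF675, also called TIZ and known to inhibit TRAF6 signalling, had 416, 346 and 420 normalised counts in WT and 233, 259 and 315 in POLDIP2 KO. Its log2 fold change was -0.56 ± 0.18 (SE, n = 3 per line), with an adjusted p value of 0.543 (limma, Benjamini-Hochberg). These were moderate differences that lay outside the range of the other line in every library without passing the adjusted threshold.

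ZNF100 had 247, 236 and 333 normalised counts in WT and 159, 201 and 175 in POLDIP2 KO, a log2 fold change of -0.60 ± 0.21 (SE, n = 3 per line) with an adjusted p value of 0.610 (limma, Benjamini-Hochberg). ZNF724 had 177, 160 and 164 in WT and 109, 134 and 98.3 in POLDIP2 KO, a log2 fold change of -0.55 ± 0.21 with an adjusted p value of 0.678 (limma, Benjamini-Hochberg). ZNF724 is uncertain as a single gene, because 60.8% of the 31-base words of its transcripts also occur in transcripts of other genes, the largest share among the members, and another annotated coding gene overlaps it. ZNF708 had 392, 306 and 376 normalised counts in WT and 241, 282 and 303 in POLDIP2 KO, where the lowest WT library and the highest knockout library nearly met and the 95% interval of the log2 fold change, -0.79 to 0.04, spanned 0.

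**Figure D1:**
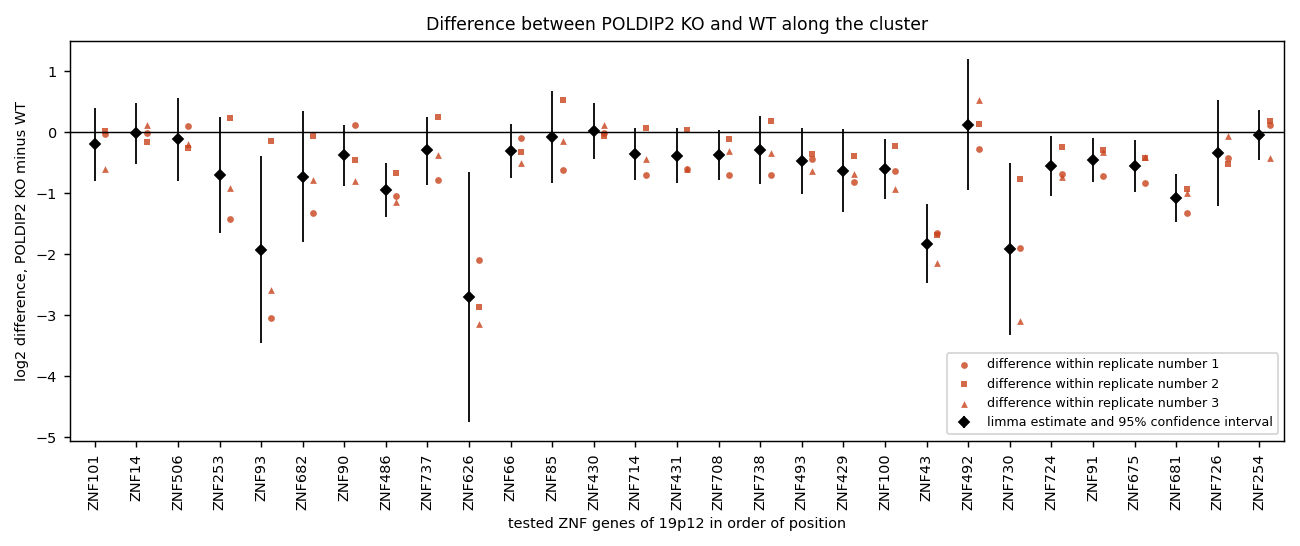
Log2 difference of POLDIP2 KO minus WT for the 29 members in order of position, with the limma estimate and its 95% confidence interval (black, n = 3 per line) and the difference within each replicate number (red). The estimates lie below 0 in 27 members; the interval lies wholly below 0 in 10, and the median difference within replicate number 2 is -0.23, against -0.70 and -0.60 within numbers 1 and 3.

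The size of the difference varied with the replicate number. Within numbers 1, 2 and 3, POLDIP2 KO was lower than WT in 26, 20 and 26 members, with median log2 differences of -0.70, -0.23 and -0.60. In 16 members the difference was negative within all 3 numbers, against 15.7% of all genes tested. WT replicate 2 was the lowest WT library in 19 of the 29 members, with a median deviation from the WT mean of -0.19 on the log2 scale, while POLDIP2 KO replicate 2 was the highest of its line in 14. Without WT replicate 2 the count of members with no overlap between the lines was 17 rather than 11. It was 11 to 15 when another library was left out, and fewer libraries have fewer chances to overlap. The share of all genes was not counted for these reduced comparisons, and the cause was not tested.

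Levels per kilobase of exon differed far more between members than between lines. The mean over the 6 libraries was 3.07 to 103 normalised counts per kilobase, with a median of 36.7. ZNF714 had the highest mean per kilobase, followed by ZNF91 with 79.9 and ZNF708 with 73.2. ZNF714 had 1191, 936 and 1307 normalised counts in WT and 728, 978 and 963 in POLDIP2 KO. Here the lines overlapped, since WT replicate 2 lay below 2 of the 3 knockout libraries, and the log2 fold change was -0.36 ± 0.18 (SE, n = 3 per line; adjusted p value 0.887 by limma with Benjamini-Hochberg adjustment). ZNF626 and ZNF492 had the lowest means per kilobase, 3.07 and 3.15. Across the 29 members the mean per kilobase and the log2 fold change had a Spearman's rho of 0.31, and the number of fingers and the log2 fold change one of 0.05; these are descriptions across genes that share libraries and sequence.

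The remaining members overlapped between the lines, and most of them were still lower on average. ZNF253, ZNF682 and ZNF429 had log2 fold changes of -0.70, -0.73 and -0.63, with 95% intervals of -1.66 to 0.25, -1.80 to 0.35 and -1.31 to 0.05. ZNF493, ZNF431, ZNF90, ZNF726, ZNF66, ZNF737 and ZNF738 lay between -0.47 and -0.30. For ZNF101, ZNF506, ZNF85, ZNF254 and ZNF14 the log2 fold change was between -0.20 and -0.02. The 95% interval spanned 0 in every one of these members. ZNF430 had 382, 306 and 385 normalised counts in WT and 378, 294 and 419 in POLDIP2 KO. The fold change was 0.02 on the log2 scale, with a 95% interval of -0.44 to 0.47. ZNF492 had 15.1, 14 and 9.4 in WT and 12.3, 15.5 and 13.9 in POLDIP2 KO. The fold change was 0.12 on the log2 scale, with an interval of -0.95 to 1.2. Both intervals are wide enough to hold the median difference of the members.

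Along the chromosome, the first 3 members, ZNF101, ZNF14 and ZNF506, overlapped between the lines, with log2 fold changes of -0.20 to -0.02. From ZNF253 to ZNF486, 2 of 5 members had no overlap, with a median log2 fold change of -0.73. From ZNF737 to ZNF430 and from ZNF714 to ZNF493 it was 1 of 5 in each stretch, with medians of -0.30 and -0.37. From ZNF429 to ZNF43 it was 2 of 3, with a median of -0.63. In the 5 consecutive members from ZNF730 to ZNF681 (chr19:23075210-23758891) it was 5 of 5, with log2 fold changes of -1.92 to -0.45, and the last 2 members, ZNF726 and ZNF254, again overlapped. These stretches were set by hand after the values were seen, follow no rule on the gaps between genes, leave out ZNF492 and carry no test. Of the 12 members on the minus strand 8 had no overlap, with a median log2 fold change of -0.56, and of the 17 on the plus strand 3, with a median of -0.36. Over all genes tested, on either strand, all POLDIP2 KO libraries lay below all WT libraries in 5.44%. The split by strand was not listed in the design and carries no test.

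The 8 coding ZNF genes that did not reach the mean of 10 all lay between ZNF43 and ZNF730, from ZNF208 to ZNF728 (chr19:21932958-23003176), a stretch in which ZNF492 alone reached it. ZNF676, ZNF729, ZNF98, ZNF723 and ZNF728 were listed at 0 in every library. A listed 0 need not mean an absent transcript in this table, since EHMT2, a gene of the co-repressor list that cells commonly use, was listed at 0 in 4 of the 6 libraries and had up to 145 reads in the others. ZNF208, ZNF257 and ZNF99 had at most 4, 6 and 3 reads in a library. Closest to the limit on its upper side were ZNF492 with a mean of 13.4 and ZNF626 with 21.0 normalised counts, and on its lower side ZNF257 with 2.86 and ZNF208 with 2.02. No comparison between the lines was made for these 8 genes.

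The members share more than position. Proteins translated from the annotated coding sequences held 5 to 32 C2H2 fingers (median 12) in 375 to 1191 residues. Identity was taken as identical aligned residues over the length of the shorter protein, so a short protein can match part of a longer one. Over the 406 pairs of members the median of this measure was 70.1%. The highest value, 83.3%, was that of ZNF91 (1191 residues) and ZNF254 (659 residues). ZNF101 and ZNF14 at the telomeric end were the least like the rest, each with a best match of 53.9%. Between 4.86% and 60.8% (median 15.8%) of the 31-base words in a member's transcripts occurred in other genes as well. That share and the log2 fold change had a Spearman's rho of 0.11 across members. How reads were split among copies in the deposited values was not tested.

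RefSeq gave a promoter, 250 bases before to 50 after the start on GRCh38.p14, for 26 of the 29 members. All 26 held the letters CCAAT on either strand, the box bound by the factor NF-Y, against 35.7% of 27305 promoters and, among ZNF promoters, 71.1% before the window on chromosome 19, 39.7% after it and 43.5% on other chromosomes. The letters CGGAAG, a core of ETS family sites, stood in 18 of 26 (69.2%), against 19.9% of all promoters and 46.7%, 60.3% and 43.1% of those 3 ZNF sets. GGGCGG, the core of an Sp1 site, stood in 20 of 26 (76.9%), against 44.6% of all promoters and 86.7%, 61.0% and 61.2% of the ZNF sets, so its share was highest in the ZNF genes before the window. The letters TGACGT and ACTACAA were in 0 member promoters, TGCGCA and AAGATGG in 2 each, against 8.32%, 2.95%, 8.42% and 6.06% of all promoters. Counted by first base, a CCAAT on the coding strand stood 51 to 58 bases before the start in 23 of 26 promoters and another 81 to 87 bases before it in 16. A CGGAAG on the other strand stood 17 to 24 bases before the start in 16. These 3 windows were set after the positions were seen.

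The last 100 bases before the start are shown for the 5 members with the smallest limma p value and for the 3 with the log2 fold change nearest to 0, to show the letters at both ends of the range of differences; none of the 8 was called by limma. They run 5′ to 3′ on the coding strand, with CCAAT and CGGAAG, or their reverse complements ATTGG and CTTCCG, in capitals. For ZNF43, ZNF730, ZNF626, ZNF430 and ZNF254 the RefSeq start lies inside the span that GENCODE gives the gene, and 5 of the printed bases of ZNF43, 25 of ZNF626, 23 of ZNF430 and 27 of ZNF254 are exonic there. First come the 5 with the smallest p value.
ZNF43 (chr19:21836183-21836282, minus strand): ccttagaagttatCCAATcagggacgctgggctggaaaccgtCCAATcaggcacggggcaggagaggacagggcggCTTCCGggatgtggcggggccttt
ZNF681 (chr19:23758892-23758991, minus strand): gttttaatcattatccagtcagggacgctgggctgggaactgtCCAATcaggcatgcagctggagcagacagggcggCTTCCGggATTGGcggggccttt
ZNF486 (chr19:20167114-20167213, plus strand): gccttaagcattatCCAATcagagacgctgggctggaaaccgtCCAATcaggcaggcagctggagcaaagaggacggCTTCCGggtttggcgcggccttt
ZNF730 (chr19:23116925-23117024, plus strand): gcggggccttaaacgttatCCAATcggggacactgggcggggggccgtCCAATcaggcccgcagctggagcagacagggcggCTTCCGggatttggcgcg
ZNF626 (chr19:20661572-20661671, minus strand): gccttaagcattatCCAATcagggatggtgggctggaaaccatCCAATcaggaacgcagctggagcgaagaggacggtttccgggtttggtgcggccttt
Next come the 3 with the log2 fold change nearest to 0.
ZNF430 (chr19:21020557-21020656, plus strand): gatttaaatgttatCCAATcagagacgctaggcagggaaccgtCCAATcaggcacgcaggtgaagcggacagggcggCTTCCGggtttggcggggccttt
ZNF14 (chr19:19733113-19733212, minus strand): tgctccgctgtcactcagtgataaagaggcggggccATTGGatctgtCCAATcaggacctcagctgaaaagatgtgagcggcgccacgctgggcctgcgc
ZNF254 (chr19:24087087-24087186, plus strand): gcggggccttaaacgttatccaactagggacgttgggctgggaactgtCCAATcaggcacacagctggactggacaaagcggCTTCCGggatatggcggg
In these bases ZNF43, ZNF486, ZNF730, ZNF626 and ZNF430 have 2 CCAAT boxes on the coding strand and ZNF681, ZNF14 and ZNF254 have 1, while CTTCCG stands in all but ZNF626 and ZNF14. The 8 genes were selected on their measured differences, so nothing is read from the boxes about those differences.

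The 10-letter word tccaatcagg, which contains the CCAAT box and was found by searching the member promoters, stood in 25 of 26 of them against 0.388% of all promoters, on either strand. It also stood in 40.0% of the promoters of the ZNF genes on chromosome 19 before the window, in 0 of 141 after it and in 6.22% of those on other chromosomes. The median identity over the 325 pairs of member promoters was 75.5%, against 50.8% over 990 pairs of promoters of the ZNF genes before the window. In the 40 tested genes outside the cluster whose promoter held the word, the median log2 fold change was -0.07 and 26 were lower. In the 28 ZNF genes among them it was -0.07 and 19 were lower, against 50.1% of all genes tested. Of these ZNF genes, ZNF678 on chromosome 1 had the lowest value, -0.78 (unadjusted p value 0.00987 by limma). ZNF709 on chromosome 19 had the highest, 1.08 (unadjusted p value 0.56 by limma), and the next highest was ZNF556 at 0.21. A motif match is a description of letters and shows no binding.

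ZNF genes elsewhere had medians nearer to 0. The 46 tested ZNF genes of chromosome 19 before the window had a median log2 fold change of -0.03. In 4 of them (8.7%) all POLDIP2 KO libraries lay below all WT libraries, against 5.44% of all genes tested. The 158 after the window had a median of -0.11, with 22 below (13.9%) and 3 above in this sense. Limma called 1 of these 158 lower after Benjamini-Hochberg adjustment, against 0.0885% of all genes tested. The 231 on other chromosomes had a median of -0.06, with 15 below (6.49%) and 8 above. Of all 14684 genes tested, 802 lay above. Medians of sets of genes that share libraries are given side by side here, and no test of the difference between the sets was run.

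**Figure D2:**
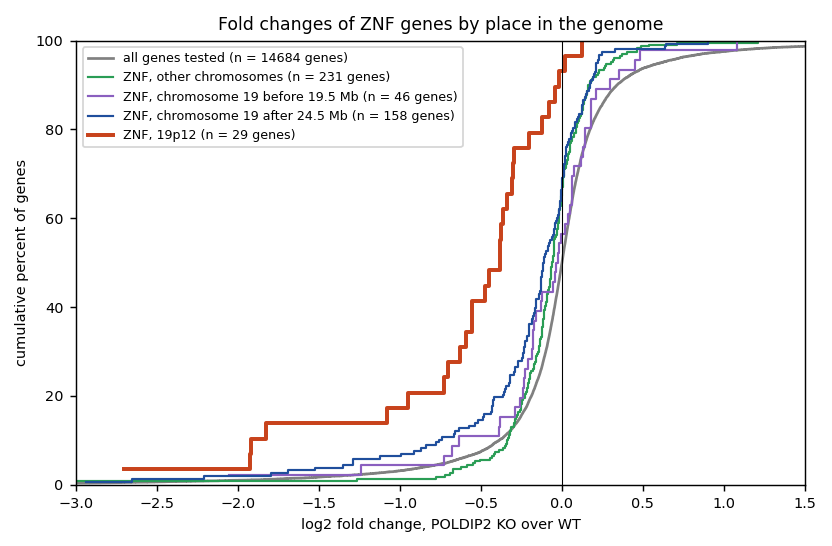
Cumulative percent of genes (vertical axis) up to each log2 fold change of POLDIP2 KO over WT (horizontal axis) for all 14684 genes tested and for ZNF genes by place in the genome. The line of the 29 members at 19p12 (red) lies to the left of the others, with 27 of 29 below 0.

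Other genes of the same window lay on both sides of 0, mostly above it before ZNF101 and mostly below it among the members. Of 14 tested genes in it that are not members, the median log2 fold change was -0.06 and limma called 0. At an unadjusted limma p value under 0.05, 1 was lower, against 3.47% of all genes tested. The 8 coding genes that start before ZNF101 had a median of 0.10, and 2 of them were lower. ENSG00000283201, a coding gene that starts among the members and overlaps ZNF724, had a log2 fold change of -0.36, and its lines overlapped. The 5 pseudogenes all start among the members and had a median of -1.09. On average 4 of them were lower, against 50.1% of all genes tested, and ZNF56P was higher, at 0.10. In 3 of the pseudogenes, ZNF826P, IPO5P1 and VN1R83P, all POLDIP2 KO libraries lay below all WT libraries, against 5.44% of all genes tested. ZNF826P, a pseudogene of the same family between ZNF486 and ZNF737, had 121, 64.2 and 90.8 normalised counts in WT and 22.1, 38.3 and 20.9 in POLDIP2 KO. Its log2 fold change was -1.73 ± 0.38 (SE, n = 3 per line), with an adjusted p value (Benjamini-Hochberg) of 0.237 by limma and 0.0225 by DESeq2. IPO5P1, a processed pseudogene between ZNF724 and ZNF91, had 469, 141 and 150 in WT and 135, 104 and 96.3 in POLDIP2 KO, where WT replicate 1 stood far above the rest; its log2 fold change was -0.95 ± 0.47. VN1R83P had 11.5 to 17.9 in WT and 4.88 to 10.9 in POLDIP2 KO. Next by p value came ENSG00000233836, an unnamed transcribed pseudogene, with 64.2, 7.02 and 41.8 in WT and 14.8, 13.8 and 1.99 in POLDIP2 KO (log2 fold change -1.67), and LPAR2, with 316, 427 and 314 in WT and 372, 252 and 219 in POLDIP2 KO (-0.35). Both overlapped between the lines. The 32 coding genes around the window start within 1 Mb before it or at 27 to 31 Mb, which does not adjoin it. Their median was 0.00, and limma called 0. By unadjusted limma p value under 0.05, 1 was lower, against 3.47% of all genes tested. That 1 was TMEM59L, with 140, 134 and 63.7 in WT and 55.4, 41.5 and 21.8 in POLDIP2 KO (log2 fold change -1.50 ± 0.47). MEF2B had 58.6, 20.1 and 51.2 in WT and 4.92, 7.33 and 36.7 in POLDIP2 KO, and PLEKHF1 had 120, 230 and 94 in WT and 89.8, 120 and 97.3 in POLDIP2 KO. The lines overlapped in both.

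The genes for the proteins that act with KRAB zinc finger proteins had no common direction. All 33 genes of this list, which holds TRIM28, SETDB1, HP1 genes and other chromatin regulators, were tested. Their median log2 fold change was 0.02, against 0.00 for all genes, and limma called 0 after Benjamini-Hochberg adjustment. At an unadjusted limma p value under 0.05, 1 was higher, against 441 of the 14684 genes tested. On recovered reads edgeR and DESeq2 called 0 as well, but DESeq2 gave EHMT2 no adjusted p value. TRIM28 had 11198, 11733 and 13792 normalised counts in WT and 11217, 12369 and 11320 in POLDIP2 KO, with a log2 fold change of -0.07 and a 95% interval of -0.34 to 0.20. TASOR, a subunit of the HUSH silencing complex, had 2332, 2121 and 2530 in WT and 2893, 2849 and 3140 in POLDIP2 KO, all above WT. Its log2 fold change was 0.35 ± 0.11 (SE, n = 3 per line), with an adjusted p value of 0.499 by limma with Benjamini-Hochberg adjustment. ATRX followed by p value, with 4074, 4167 and 4566 in WT and 4628, 4969 and 4767 in POLDIP2 KO, a log2 fold change of 0.17. RBBP4 had 7337, 5888 and 6368 in WT and 7592, 6997 and 7925 in POLDIP2 KO, a log2 fold change of 0.20, and the lines overlapped. In none of the 33 did all POLDIP2 KO libraries lie below all WT libraries, against 5.44% of all genes tested. In 3 they lay above, against 802 of the 14684 genes tested.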

How the data were processed

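RNA of WT ARPE-19 and POLDIP2 KO cells, 3 biological replicates each at day 3, was sequenced from TruSeq Stranded mRNA libraries. The signal in each of the 6 columns is the authors' normalised value as deposited: Salmon 1.8 estimates on GRCh38, brought to gene level by tximport and scaled by DESeq2 1.34.0 size factors. The annotation release is not given in the sources used here. All columns were used, so 0 were left out.

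Genes with a mean of at least 10 were tested with limma 3.58.1 in R 4.3.3 (lmFit, eBayes with trend) on log2(normalised count + 1), with Benjamini-Hochberg adjustment over all 14684 genes. The pseudocount makes log2 fold changes of low genes smaller than the ratio of their counts. A gene was called at an adjusted p under 0.05 with a fold over 1.5, the cut-offs of the study. Limma called 13 genes lower and 12 higher in POLDIP2 KO. Each column was divided by its smallest step, taken as 1 read; 100% of the values came out whole within a tolerance of 0.001, which says little for WT replicate 2 and POLDIP2 KO replicate 3, where the step is close to 1. On these recovered counts edgeR 4.0.16 called 8 lower and 9 higher, and DESeq2 1.42.0 called 137 lower and 111 higher. The scripts were tested on simulated data.

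Values centred within each line correlated at 0.315, 0.137 and 0.129 between same-numbered libraries across the tested genes, above the limit of 0.1. Between others the correlations ran from -0.259 to 0.147. The 0.147, of WT replicate 3 with POLDIP2 KO replicate 2, also passed the limit. Only the 0.315 of the replicates numbered 1 stood apart, so pairing by number is uncertain. The main limma fit left the number out, and the replicate block was an alternative. The labels name no batch.

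The members and lists were chosen with earlier results of these data known. Values per library were given by a rule: members with an unadjusted p value under 0.05, the 3 of highest mean per kilobase, those of opposite direction, and the 2 nearest to the mean of 10 on each side; of other lists, the 3 smallest p values, and the 5 smallest for other genes of the window. TRIM28, EHMT2, ZNF678, ZNF709, ZNF556, ZNF56P, ENSG00000283201, LRAT, SERPINF1, VIM, PDGFRB and the collagen genes were named after their values were seen. Fingers were counted by the C2H2 pattern in translated GENCODE release 44 coding sequences, and identities were computed with Biopython 1.88. Promoters came from RefSeq (GRCh38.p14). ZNF738, ZNF506 and ZNF253 were not matched there.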

Additional observations from a re-analysis of the deposited data

How the results depend on the processing

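The alternatives were listed with the design, except those for the 15 members that the naming rule does not list, which were chosen after seeing the data. The count of members called lower was 0 by limma, 1 with the replicate block and 3 with DESeq2 on recovered reads, and 0 under each of the others, whether the pseudocount, the filter, the scaling, the eBayes setting, edgeR or a left-out library was changed. The replicate block changed no other call among the members, the co-repressor list or the neighbouring genes. Among the other genes of the window, DESeq2 called 1, ZNF826P, where limma called 0. The median log2 fold change of the members ran from -0.51 to -0.37, and from -0.53 to -0.34 when a library was left out. The -0.51 was without members whose protein is at least 80% identical to that of another, as a share of the shorter protein. The count of members with all POLDIP2 KO libraries below all WT libraries ran from 8, at a mean of at least 50, to 11, and from 11 to 17 when a library was left out, with 17 without WT replicate 2. A comparison with fewer libraries has fewer chances to overlap. The share of all genes was counted for the main setting only, and the cause was otherwise not tested. Over all 29 members, the sign turned for 7, with log2 fold changes of -0.20 to 0.12: ZNF492 had -0.07 without WT replicate 3, and ZNF430 had -0.09 without WT replicate 2, -0.02 without POLDIP2 KO replicate 1 and -0.09 without POLDIP2 KO replicate 3 (-0.07 to 0.25 and -0.09 to 0.16 over the left-out libraries). ZNF101 had 0.01 without WT replicate 3, ZNF254 had 0.09 without WT replicate 3 and 0.01 without POLDIP2 KO replicate 3, and ZNF85 had 0.14 without WT replicate 1 and 0.09 without POLDIP2 KO replicate 3. ZNF506 had 0.05 without WT replicate 1 and 0.02 without POLDIP2 KO replicate 2 or 3. ZNF14 had 0.01 with quantile normalisation, and 0.05, 0.03 and 0.09 without WT replicate 2, WT replicate 3 and POLDIP2 KO replicate 1. Over the left-out libraries these 5 ran from -0.42 to 0.01 (ZNF101), -0.16 to 0.09 (ZNF254), -0.30 to 0.14 (ZNF85), -0.40 to 0.05 (ZNF506) and -0.13 to 0.09 (ZNF14). Over all genes, limma called 13 lower and 12 higher, DESeq2 137 and 111, edgeR 8 and 9, and limma at a mean of at least 50 called 6 and 10. Leaving out a library gave 2 and 8 without WT replicate 1, 5 and 5 without POLDIP2 KO replicate 1, and 0 in either direction without any of the other 4, where 693 to 903 genes had an unadjusted p value under 0.05. Members with means near 10 rest on a few reads per library, which limits what their fold changes can show.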
